A study of Mus musculus with 12 samples.

Results

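Gene expression in the mouse hippocampus was compared between CT18, the middle of the subjective night, and CT6, the middle of the subjective day. The comparison took the 3 arrays titled CT18 and the 3 titled CT6, 6 of the 12 arrays of the series. All mice were adult wild-type males that had been moved into constant darkness, and each array held RNA from the hippocampus of 1 mouse. The CT18 mice had spent 30 hours in darkness and the CT6 mice 42 hours, so circadian time and time in darkness cannot be told apart. The other arrays came from CT0 and CT12, the starts of the subjective day and night, with 3 mice each. Their role here was to help estimate the spread between mice and to place CT6 and CT18 within the day. The array titled CT12 mouse 11 stood apart: its correlation across genes with the other arrays was 0.945 to 0.965, while no other pair fell below 0.984, and it was left out of the fit.

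Mice are active at night, and circadian time counts hours from the start of the subjective day. The hippocampus stores spatial and episodic memory, and its cells carry a molecular clock in which CLOCK and BMAL1 drive their own repressors, among them the Period and REV-ERB genes. Other transcripts follow body temperature, feeding, circulating glucocorticoids and wakefulness, all of which cycle over the day. Heat shock factor turns on cytosolic chaperones when proteins misfold or temperature rises, the unfolded protein response turns on chaperones of the endoplasmic reticulum (ER), and cold-inducible RNA-binding proteins rise when temperature falls.

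Between 61.2% and 64.7% of 59305 spots lay well above background on the 6 arrays, and 0 spots were saturated. The CT0 arrays, which helped to estimate the spread, were less even. CT0 mouse 1 was flagged for evaluation by the extraction software, with a local background of 100.6 against 25.3 to 37.8 on the 6 arrays. On CT0 mouse 3, 77.1% of spots lay well above background. Correlations across genes among the 6 arrays ranged from 0.988 to 0.994. CT6 mouse 7 and CT18 mouse 14, 1 array of each group, carried transcripts of the choroid plexus, the tissue that secretes cerebrospinal fluid. On these arrays the median over 11 choroid plexus markers lay 3.04 and 2.86 above the average of the 6 arrays on the log2 scale. On the other arrays it lay between -1.59 and -1.35. The median level of dentate granule cell markers did not overlap between the groups, although 1 of the 12 markers was called. Neither did that of CA3 and CA2 pyramidal cell markers or of oligodendrocyte precursor markers. The values are given with the cell types.

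At CT18, 207 genes were higher and 124 were lower than at CT6, out of 23821 tested (limma, Benjamini-Hochberg adjusted p under 0.05). These are 1.39% of the genes tested, 0.869% higher and 0.521% lower. They are the shares to set beside the counts of called members in each gene list below. The median difference was 0.56 on the log2 scale among the higher genes (1.48-fold) and -0.72 among the lower ones (1.65-fold). At least 2-fold changes were seen in 32 higher and 29 lower genes, and the smallest change called was 1.25-fold. Over all genes the median difference was -0.02, and 46.3% of genes lay above 0. The lower genes were dimmer: their median level was -1.97, against 0.30 for the higher genes and -0.20 for genes not called, in log2 units relative to the 75th percentile of each array.

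All 331 called genes had values that did not overlap between the 3 CT18 and the 3 CT6 mice, which holds for 23.0% of all genes tested, and 5488 genes did not overlap. The count depended strongly on the arrays that entered the fit. With the 6 arrays alone 61 genes were called, and with CT12 mouse 11 included 38. With the slide as a block, which compares mice on the same slide, 732 were called, 48.6% of them higher. Leaving out CT6 mouse 5, 6 or 7 left 122, 30 or 25 calls, leaving out CT18 mouse 14, 15 or 16 left 48, 100 or 23, and leaving out CT0 mouse 2 left 210. Without both arrays that carried choroid plexus transcripts, an alternative chosen after seeing the data, 0 genes passed in limma (smallest adjusted p = 0.0894), and 2069 had an unadjusted p under 0.05. In that fit the median differences of the 207 higher and the 124 lower genes were 0.56 and -0.69. All of them kept their sign, which was fixed in advance because their values did not overlap between the groups.

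**Figure D1:**
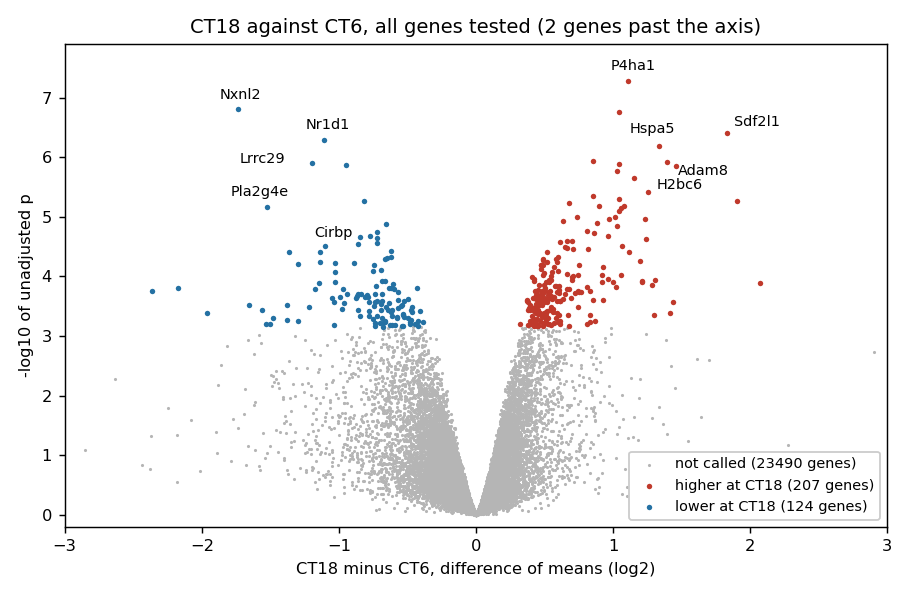
Difference between the CT18 and CT6 means (x, log2) against -log10 of the unadjusted p from limma (y) for the 23821 genes tested. Red points are the 207 genes called higher at CT18, blue points the 124 called lower, and grey points the rest. P4ha1 has the smallest p, and 2 genes whose difference rests on 1 array lie past the x axis.

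Chaperones and folding enzymes of the ER were among the genes that rose at CT18. Of 24 measured, 11 were called higher and 0 lower, 21 lay above 0, and the median difference was 0.41, against 1.39% of all genes called and a median of -0.02. The sizes were uneven. The largest was Sdf2l1, a partner of the ER HSP70, with values of -0.76, -0.67 and -0.61 in the CT6 mice and 1.02, 1.10 and 1.32 in the CT18 mice (3.55-fold, adjusted p = 0.00234). Hspa5, the ER HSP70 itself, stood at 3.99, 4.12 and 4.07 at CT6 and 5.32, 5.35 and 5.52 at CT18 (2.52-fold, adjusted p = 0.00257). Neither gene overlapped between the groups. Manf, a secreted ER protein that protects stressed cells, differed by 1.16 ± 0.11 (SE). The disulfide isomerases Pdia6 and Pdia3 differed by 1.03 ± 0.12 and 0.74 ± 0.09, and Creld2, another ER stress protein, by 0.97 ± 0.11. The other ER lists moved less. Derl3 and Derl2, which help export misfolded proteins for degradation, were the called genes among 21 of ER-associated degradation, with differences of 1.21 and 0.53. Xbp1, a transcription factor of the unfolded protein response, rose by 0.75 ± 0.13 and was the called gene among 19 sensors and factors. None of 24 translocon genes, 32 of N-glycosylation or 33 of vesicle transport was called, with medians of 0.07, 0.02 and 0.04 (Sec61a1: 0.24 ± 0.07; Ssr3: 0.26 ± 0.07; Mlec: 0.31 ± 0.07; Magt1: 0.49 ± 0.11; Sec24b: 0.17 ± 0.07; Sec22b: 0.20 ± 0.09). Leaving out 1 array in turn left 3 to 11 ER chaperones called, and without both arrays with choroid plexus transcripts their median was 0.34 with 0 called.

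The promoters of some of these genes hold a known element. The element and the gene lists were chosen with earlier results of these data known, so the shares given here are descriptive and carry no test. The ER stress element, CCAAT and CCACG with 9 bases of any kind between them, on either strand, is the known site of the ATF6 and XBP1 response. It was searched in RefSeq promoters (GRCm38.p6) running from 250 bases before to 50 after a start, which were at hand for 12482 of the 15978 tested genes with a RefSeq symbol. It was found in 20 of them (0.16%). Its first letters are those of the CCAAT box, which alone was in 42.2% of all promoters, 47.2% of those of higher genes, 43.5% of those of lower genes and 18 of 21 ER chaperones (85.7%). Of 144 higher genes with a promoter 6 held it (4.17%), of 62 lower genes 0, and of 21 ER chaperones 8 (38.1%). Sdf2l1, Manf and Pdia3 were not among the genes with a match. All matches of the 6 higher genes, and of the 3 ER chaperones that held the element and were not called (Dnajc3, Canx and Ero1b), are printed with 15 bases on each side, 5′ to 3′ on the strand of the gene, the element in capitals.
Hspa5 (chr2:34772010-34772058, plus strand): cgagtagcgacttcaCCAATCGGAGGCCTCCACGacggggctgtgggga
Pdia6 (chr12:17266476-17266524, plus strand): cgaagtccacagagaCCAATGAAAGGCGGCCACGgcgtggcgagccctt
Creld2 (chr15:88819505-88819553, plus strand): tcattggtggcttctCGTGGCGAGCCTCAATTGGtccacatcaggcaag
Derl3 (chr10:75893227-75893275, plus strand): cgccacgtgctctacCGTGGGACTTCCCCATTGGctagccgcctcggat
Calr (chr8:84847060-84847108, minus strand): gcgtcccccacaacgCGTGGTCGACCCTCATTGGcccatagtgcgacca
Hsp90b1, farther match (chr10:86705623-86705671, minus strand): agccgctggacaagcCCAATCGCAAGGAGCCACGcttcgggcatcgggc
Hsp90b1, nearer match (chr10:86705518-86705566, minus strand): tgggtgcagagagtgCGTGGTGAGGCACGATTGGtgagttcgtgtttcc
Dnajc3 (chr14:118937812-118937860, plus strand): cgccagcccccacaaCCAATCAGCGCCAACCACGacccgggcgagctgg
Canx (chr11:50325785-50325833, minus strand): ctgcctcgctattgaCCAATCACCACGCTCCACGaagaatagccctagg
Ero1b (chr13:12565667-12565715, plus strand): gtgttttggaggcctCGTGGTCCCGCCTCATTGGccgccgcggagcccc

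In Creld2, Derl3, Calr, Ero1b and the nearer match of Hsp90b1 the element reads on the opposite strand (CGTGG first). The first base of the printed matches lay between 65 bases (Hspa5) and 212 bases (Hsp90b1) before the start. The 20 genes that hold it had differences from -0.23 to 1.33 with a median of 0.18, 16 of them above 0, and 6 were called higher. Holding the element did not go with a fixed size of difference. Hspa5, Derl3 and Pdia6 were among the largest, Calr (0.56 ± 0.10) and Hsp90b1 (0.52 ± 0.07) were near the median of the genes called higher, Dnajc3 reached 0.61 ± 0.15 without being called, and Canx, the membrane-bound lectin chaperone, stood at 0.03 ± 0.13. Ero1b, which reoxidises the disulfide isomerases, stood at 0.11 ± 0.10. Alg12 starts next to Creld2 on the other strand, so the promoter windows overlap and the element is shared. Alg12, a mannosyltransferase of N-glycosylation, differed by 0.17 ± 0.10 and was not called.

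Cytosolic chaperones were among them as well. Of 29 heat shock proteins and HSP90 partners measured, 8 were called higher and 0 lower, against 0.869% and 0.521% of all genes. In this list 27 lay above 0, against 46.3% of all genes, and the median difference was 0.28. Hspb1, the small heat shock protein HSP27, stood at 1.45, 1.54 and 1.58 at CT6 and 2.93, 2.76 and 2.82 at CT18 (2.48-fold, adjusted p = 0.0272). Cryab, αB-crystallin, stood at 4.16, 4.06 and 4.02 against 5.04, 4.96 and 4.79 (1.80-fold, adjusted p = 0.00661). Chordc1, an HSP90 cochaperone, stood at 1.76, 1.80 and 1.69 against 2.65, 2.50 and 2.65 (1.80-fold, adjusted p = 0.00279). In all of these genes every CT18 mouse lay above every CT6 mouse. Hspa1a, the inducible HSP70, whose near-identical copy Hspa1b a probe may also detect, differed by 0.77 ± 0.13, and the HSP90-bound prolyl isomerase Fkbp4 by 0.67 ± 0.10. The HSP40 genes Dnajb1 (0.50 ± 0.08) and Dnaja1 (0.48) and the HSP70 to HSP90 adaptor Stip1 (0.44) were the remaining called genes. The abundant chaperones themselves did not pass the test: Hsp90aa1 differed by 0.07 ± 0.10, Hsp90ab1 by 0.09 and Hspa8 by -0.03 ± 0.17. The median within slides was 0.31, 0.23 and 0.37, and without both arrays with choroid plexus transcripts it was 0.34. Leaving out 1 array in turn left 2 to 8 of these genes called.

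The heat shock element, searched as GAA, TTC and GAA with 2 bases of any kind between each, on either strand, was found in 72 promoters (0.577%) and in 5 of 24 heat shock genes with a promoter (20.8%), namely Chordc1, Dnajb6, Hspd1, Hspe1 and Hsph1. The matches of Chordc1, whose change was among those with the smallest p, and of Hspe1, the mitochondrial cochaperone, are shown (GRCm38.p6). Chordc1 held 3 overlapping matches and Hspe1 2, and the capitals span all of them.
Chordc1 (chr9:18292248-18292296, plus strand): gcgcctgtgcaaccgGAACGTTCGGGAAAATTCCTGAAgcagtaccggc
Hspe1 (chr1:55088044-55088091, plus strand): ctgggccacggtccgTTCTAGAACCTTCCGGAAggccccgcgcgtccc

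The Hspe1 promoter overlaps that of Hspd1, which starts on the other strand, and the matches are shared. Of the 5 genes Chordc1 was called. Hsph1 (0.46 ± 0.14), Hspe1 (0.32 ± 0.10), Dnajb6 (0.28 ± 0.09) and Hspd1 (0.23 ± 0.08) lay above 0 and were not called. Their values did not overlap between the groups, which holds for 23.0% of all genes tested. Across all 72 genes with the element the median difference was 0.01, 38 lay above 0 and 2 were called higher.

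The cold-inducible transcripts lay the other way. Cirbp, an RNA-binding protein whose mRNA rises in the cold, stood at 3.79, 4.09 and 3.95 at CT6 and 2.65, 3.12 and 2.76 at CT18. It was 2.14-fold lower at CT18 (adjusted p = 0.0155) and the groups did not overlap. Its relative Rbm3 differed by -0.38 ± 0.13 and the splicing factor Srsf5 by -0.33 ± 0.10. Neither passed the test. The values of both did not overlap between the groups, which holds for 23.0% of all genes tested. Cirbp was called in 7 of 11 fits that left out 1 array. Among 23 splicing factors of the SR family, their kinases and partners, 3 were called higher and 1 lower, 17 lay above 0, and the median was 0.16. Over all genes 1.39% were called and 46.3% lay above 0. Tra2a, a splicing activator, rose by 0.60 ± 0.08 and Srsf10, which is regulated by temperature through its phosphorylation, by 0.44 ± 0.07. For Srsf6 the brightest probe rose by 0.48 ± 0.09, but its other probe differed by -0.19.

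**Figure D2:**
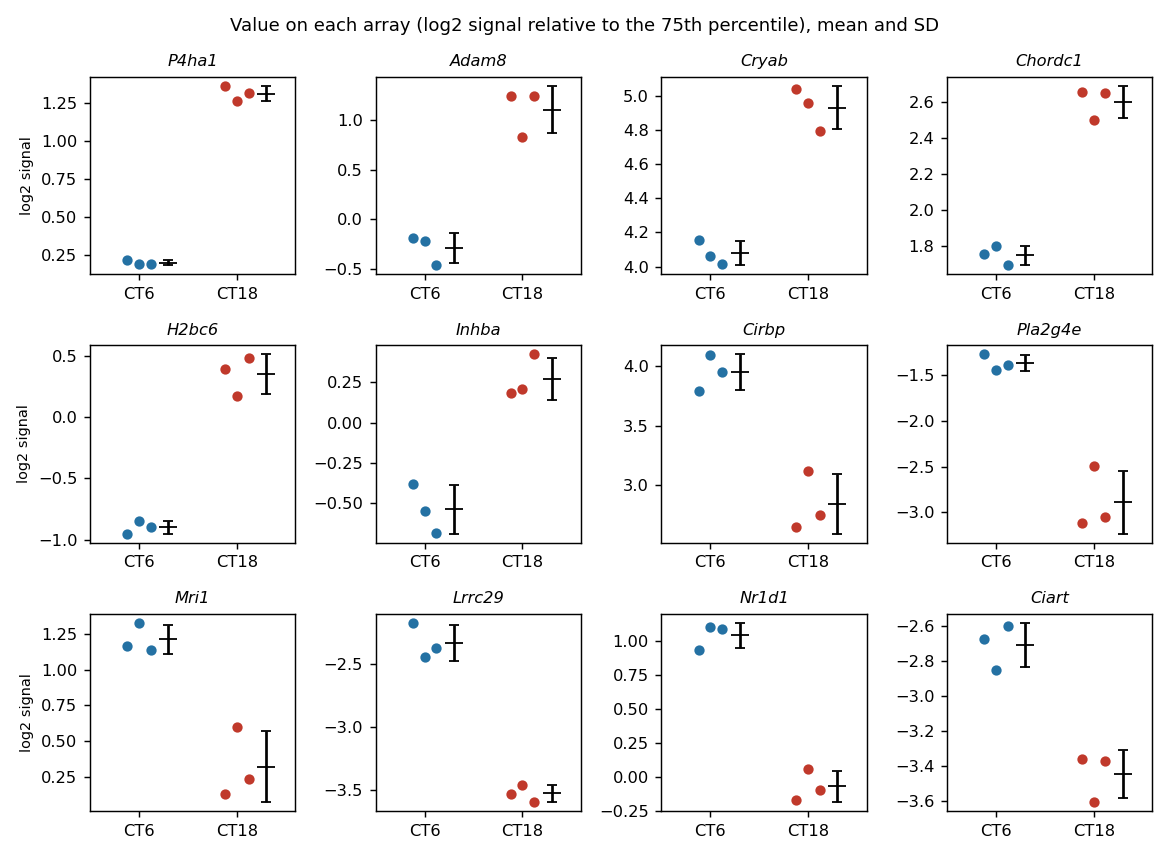
Value of 12 genes on each of the 6 arrays (y, log2 signal relative to the 75th percentile of the array; each panel has its own range, which does not start at 0). Points are single mice, CT6 in blue and CT18 in red, in the order of mouse number, and the black bar shows mean and SD of 3 mice. In every panel the groups do not overlap, with the first 6 genes higher and the last 6 lower at CT18.

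P4ha1, the catalytic subunit of the prolyl hydroxylase that stabilises collagen and a known target of hypoxia, had the smallest p of all genes. Its probe lies at chr10:58835625-58835684 (mm9). The CT6 mice had 0.22, 0.19 and 0.19 and the CT18 mice 1.36, 1.26 and 1.32, a 2.16-fold rise (1.11 ± 0.07, adjusted p = 0.00127), and both of its probes gave a difference of 1.11. P4ha1 was called in each of the 11 fits that left out 1 array. It did not move with its lists. Of 32 hypoxia and glycolysis genes 2 were called, P4ha1 and Pfkfb3, which makes the activator of phosphofructokinase (0.70 ± 0.09), and the median of the list was -0.02 with 15 above 0. Of 30 collagens and collagen-modifying enzymes 2 were called, P4ha1 and the lysyl hydroxylase Plod1 (0.49 ± 0.10), while 7 lay above 0 and the median was -0.23. The collagens themselves, among them Col1a1 (-0.51), Col3a1 (-0.63) and Col6a2 (-0.76), were not called. Markers of the meninges, a list that shares Col1a1, Col1a2 and Col3a1 with these genes, lay lower at CT18 too, and their part in the collagen values was not tested.

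Transcripts linked to neuronal activity were mostly above 0, with few calls. Of 29 immediate-early genes 24 lay above 0 and 2 were called, against 46.3% and 1.39% of all genes. The median difference was 0.32, but the medians within slides were 0.17, 0.60 and 0.12. The called genes were Maff, a small MAF factor, and Dusp6, a phosphatase of ERK. Maff was well above background in the CT18 mice only and was at least 2.12-fold higher there. The Maff call held in 5 of 11 fits that left out 1 array and was lost with the authors' deposited values (adjusted p = 0.32 in limma). Dusp6 stood at 3.06, 2.82 and 2.83 against 3.53, 3.56 and 3.65 (0.68 ± 0.11, adjusted p = 0.0298). The classic markers varied between mice. Arc, which acts at synapses, stood at 3.46, 3.03 and 3.60 at CT6 and 4.53, 4.87 and 4.29 at CT18. Its difference of 1.20 ± 0.33 was not called (adjusted p = 0.126 in limma). The groups did not overlap, which holds for 23.0% of all genes tested. Fos differed by 1.02 ± 0.58, Egr1 by 0.34 ± 0.30 and Npas4 by 0.20 ± 0.47, with overlapping groups. Of 27 activity-induced effectors Inhba, the activin A subunit, was called (-0.38, -0.55 and -0.69 against 0.18, 0.21 and 0.43; adjusted p = 0.012), and the list median was 0.08. No immediate-early gene was called with the 6 arrays alone, and leaving out 1 array in turn left between 0 and 2.

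Maff also holds a cAMP response element (TGACGTCA), the site bound by CREB, in its promoter. The window is shown because Maff is the immediate-early gene called with the largest difference (GRCm38.p6, element in capitals).
Maff (chr15:79347476-79347513, plus strand): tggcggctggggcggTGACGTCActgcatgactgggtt

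The element was found in 3.32% of all promoters, in 7 of 144 higher genes and in 3 of 62 lower genes. The higher genes with it were Ankrd13c, Dio2, Gm10037, Hhip, Maff, Mkks and Tra2a. Dio2, which activates thyroid hormone, rose by 0.61 ± 0.10.

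Of 31 glucocorticoid-responsive genes 2 were called higher and 24 lay above 0, against 0.869% and 46.3% of all genes. The median was 0.19 (0.19, 0.32 and -0.05 within slides). Plin4, a protein of lipid droplets, stood at -1.42, -1.53 and -1.15 at CT6 and 0.55, 0.07 and -0.41 at CT18 (2.70-fold, adjusted p = 0.0322). Fkbp5, which holds the glucocorticoid receptor in check, differed by 0.50 ± 0.09. For Plin4 the mean at CT12, without CT12 mouse 11, was higher still, at 1.35 against 0.07 at CT18. For Fkbp5 the means at these times were close, at 2.23 and 2.19. Tsc22d3 (0.56), Bcl6 (0.50) and Sgk1 (0.32) were not called.

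Clock genes changed one by one and not as a list. Of 10 repressors 1 was called higher and 2 lower. Per2 stood at -1.44, -1.42 and -1.53 at CT6 and -0.51, -0.66 and -0.56 at CT18 (adjusted p = 0.00975). Nr1d1, which encodes REV-ERBα, stood at 0.93, 1.10 and 1.09 against -0.17, 0.05 and -0.10 (2.16-fold lower, adjusted p = 0.00242). Ciart, a repressor in the negative arm, differed by -0.74 ± 0.14. The Ciart call held in 1 of 11 fits that left out 1 array and was lost with the authors' deposited values (adjusted p = 0.238 in limma). Per1 differed by 0.03 ± 0.13. Among 4 activators Clock differed by 0.31 ± 0.07 and Npas2 by -0.41 ± 0.24, and among 7 D-box and ROR factors Nfil3 by 0.53 ± 0.14 and Dbp by -0.45 ± 0.16, with 0 called. Of 25 other clock outputs Cys1, a protein of cilia, was called (0.52, 0.29 and 0.30 against 1.56, 1.20 and 1.71; 2.17-fold, adjusted p = 0.0163). The E-box CACGTG, the site of CLOCK and BMAL1, was found in 1379 of 12482 promoters, in 17 of 144 higher genes (11.8%) and in 9 of 62 lower genes (14.5%).

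**Figure D3:**
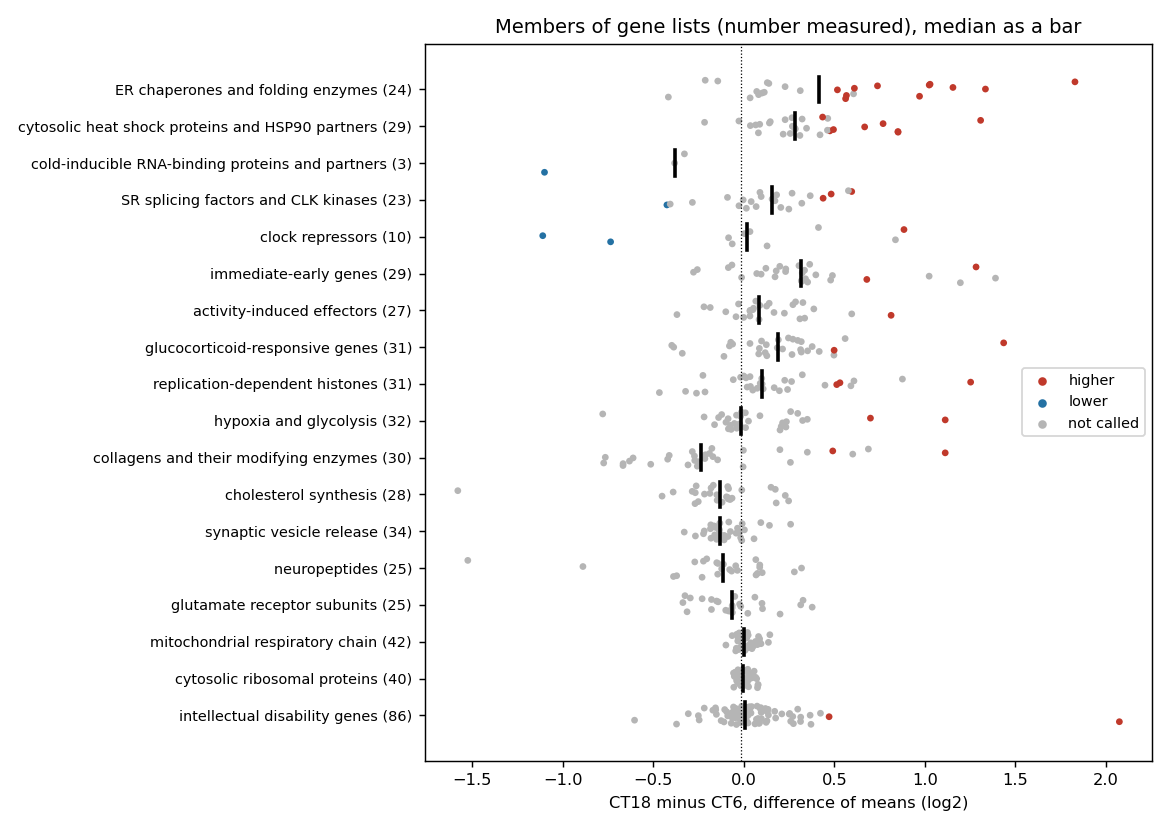
Difference between CT18 and CT6 (x, log2) of every measured member of 18 gene lists (y, number measured in brackets). Red members were called higher, blue lower and grey not called, black bars are list medians and the dotted line is the median of all genes (-0.02). ER chaperones (0.41), immediate-early genes (0.32) and cytosolic heat shock proteins (0.28) have medians to the right of the dotted line, while synaptic vesicle and cholesterol genes (both -0.13) and collagens (-0.23) lie to the left.

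Enzymes of N-acyl ethanolamine lipids changed in opposite directions. Pla2g4e makes the precursors of these endocannabinoid-like lipids by transferring an acyl chain, and stood at -1.27, -1.44 and -1.38 at CT6 and -3.12, -2.49 and -3.06 at CT18 (2.88-fold lower, adjusted p = 0.00708). Napepld releases the lipids from those precursors and stood at 1.46, 1.42 and 1.28 against 1.83, 1.77 and 1.92 (0.46 ± 0.08, adjusted p = 0.0338). They were the called genes among 18 phospholipases and endocannabinoid enzymes. Of 19 genes of the methionine cycle and salvage pathway, 1 was called in each direction. Mri1, an isomerase of methionine salvage, stood at 1.17, 1.33 and 1.14 against 0.13, 0.60 and 0.24 (1.85-fold lower, adjusted p = 0.0205), and Cth, which makes cysteine, rose by 0.59 ± 0.10. Gpt2, the mitochondrial alanine transaminase, rose by 0.47 ± 0.07 and was the called gene of 23 targets of the amino acid stress factor ATF4. Of 28 genes of cholesterol synthesis 0 were called, but 5 lay above 0 and the median was -0.13. Insig1, the sterol sensor, differed by -0.45 ± 0.12.

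Of 31 replication-dependent histone genes measured, 3 were called higher, against 0.869% of all genes. All 3 were of the H2B type, and the median of the list was 0.10. H2bc6 stood at -0.95, -0.85 and -0.90 at CT6 and 0.40, 0.17 and 0.49 at CT18 (2.38-fold, adjusted p = 0.00619). H2bc4 and H2bc14 differed by 0.53 ± 0.08 and 0.51 ± 0.09. The histone genes are near-identical copies, and a probe may detect more than 1 of them. Of 27 cell cycle genes 2 were called, Ccnb2, a cyclin of mitosis (0.42 ± 0.08), and the spindle protein Fam83d, well above background at CT18 only and at least 1.43-fold higher there. The Fam83d call held in 2 of 11 fits that left out 1 array and was lost with the authors' deposited values (adjusted p = 0.0831 in limma). Scin, which severs actin filaments, was the called gene of 30 actin regulators (-3.62, -3.98 and -4.24 against -2.84, -2.79 and -2.50; adjusted p = 0.0137).

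The series was named for genes of intellectual disability. Of 86 measured genes of such a list 2 were called higher and 0 lower (2 of 86 against 0.869% of all genes), 46 lay above 0 and the median was 0.01. Hdac4, a histone deacetylase that shuttles with neuronal activity, stood at 0.78, 0.83 and 0.82 at CT6 and 1.25, 1.22 and 1.37 at CT18 (1.39-fold, adjusted p = 0.0401).

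Most called genes lay outside these lists: of 256 with a RefSeq symbol, 52 were in a process list and 204 were not. Among the 16 largest rises were Noxred1, named for an oxidoreductase domain, which stood at -1.78, -1.74 and -1.61 against -0.07, -0.57 and -0.11 (2.75-fold, adjusted p = 0.00279), and Adam8, a membrane metalloprotease, at -0.19, -0.22 and -0.47 against 1.24, 0.83 and 1.24 (2.63-fold, adjusted p = 0.00279). Tnfrsf25, a death receptor of the TNF family, stood at 2.68, 2.24 and 2.44 against 3.82, 3.26 and 3.86 (2.29-fold), and Khdc3, best known from oocytes, at -1.87, -2.01 and -1.23 against -0.38, -0.69 and -0.41 (2.32-fold). Each of these was above background on all 6 arrays and free of overlap. Serpina3c, a member of a large family of protease inhibitors, was well above background at CT18 only and at least 1.70-fold higher there. Its call held in 2 of 11 fits that left out 1 array and was lost with the authors' deposited values (adjusted p = 0.309 in limma).

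Of the 14 falls ranked first by the fitted difference, 6 were below background at CT18. For these the fitted difference is no measured size, and every bound lies under the measured falls of Nr1d1 (2.16-fold) and Cirbp (2.14-fold). Dsg1c (at least 2.12-fold lower), Drd4, a dopamine receptor (at least 2.08-fold), Nxnl2, a thioredoxin relative known from photoreceptors (at least 1.74-fold), Wfdc6b (at least 1.65-fold), Iqcm (at least 1.38-fold) and Arhgap33os (at least 1.37-fold) were well above background at CT6 and on no CT18 array. Lrrc29 was measured on all arrays and stood at -2.17, -2.45 and -2.38 against -3.53, -3.46 and -3.60 (2.30-fold lower, adjusted p = 0.00279). Msln, the cell surface protein mesothelin, differed by -1.14 ± 0.16 and the immune receptor Slamf9 by -1.30 ± 0.19. Kif12, a kinesin (-1.56 ± 0.29), Papln, a matrix protein (-1.50 ± 0.30), Atp6v1c2, a proton pump subunit (-1.30 ± 0.25), and Potegl (-1.22 ± 0.22) were called in 4 or fewer of 11 fits that left out 1 array, and Papln in 0. Drd4 was called in 1 and Iqcm in 4 of these fits, and Drd4 was lost with the slide block (adjusted p = 0.0552 in limma). Kif12 and Potegl were above background on 2 of the 3 CT18 arrays.

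Both coding and non-coding transcripts were called. Of 15056 protein-coding genes 167 were higher and 72 lower (1.59%), and of 579 long non-coding RNAs 5 were higher and 10 lower (2.59%). Mir9-3hg, the host transcript of a miR-9 copy, chosen for mention after its values were seen, stood at 1.26, 1.27 and 1.17 at CT6 and 0.54, 0.67 and 0.50 at CT18 (-0.67 ± 0.09, adjusted p = 0.0193).

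Many lists held no called gene. Of 42 genes of the respiratory chain the differences ran from -0.10 to 0.14 with a median of 0.00, and of 40 ribosomal proteins from -0.06 to 0.08. Of 34 genes of synaptic vesicle release 5 lay above 0, with a median of -0.13 (-0.10, -0.09 and -0.11 within slides), where Syt7, a calcium sensor of release, differed by 0.26 ± 0.11. Among 25 glutamate receptor subunits (median -0.06) Grin2a differed by 0.31 ± 0.11 and Grik4 by 0.38 ± 0.13. Among 26 monoamine and acetylcholine receptors the serotonin receptors Htr1a (0.62 ± 0.14) and Htr5b (0.57 ± 0.13) came nearest to the threshold, with adjusted p of 0.0678 and 0.0667 in limma. Potassium channels (46 genes, median -0.01), sodium and calcium channels (31, 0.00), neuropeptides (25, -0.11), GABA genes (19, -0.06), proteasome subunits (33, 0.02), NRF2 targets (29, -0.01), interferon genes (25, -0.01), tRNA synthetases (19, 0.03), fatty acid genes (28, -0.02), adenosine genes (17, 0.06) and cAMP signalling genes (35, -0.04) had no call either. Within them Kcnj4, an inward rectifier, reached -0.73 ± 0.19, Cacna1h, a T-type calcium channel, 0.60 ± 0.14, and the adenylyl cyclase Adcy8 -0.65 ± 0.20.

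Few cell-type markers were called. Of 12 markers of dentate granule cells 11 lay above 0, with a median of 0.48 (0.19, 0.33 and 0.90 within slides). Lct, a known dentate marker, was called (2.54, 2.23 and 1.92 against 2.93, 3.30 and 3.23; adjusted p = 0.0322), and Prox1, which sets granule cell identity, differed by 0.56 and was not. The median over the list, relative to the 6 arrays, was -0.48 to -0.08 in the CT6 mice and 0.15 to 0.41 in the CT18 mice. The groups did not overlap, which also held for the CA3 and CA2 list and for oligodendrocyte precursors. In whole tissue, more cells of a type and more RNA per cell cannot be told apart. The part of granule cells in the genes called was not tested.

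The pyramidal cell lists had median differences near 0 (-0.04 for CA1, 0.00 for CA3 and CA2), where Bok, a relative of BCL2 marking CA3, was called with 0.61 ± 0.10. The median over the CA3 and CA2 list was -0.09 to -0.02 on the CT6 arrays and 0.02 to 0.13 on the CT18 arrays. Astrocytes (-0.02), microglia (-0.05) and endothelial cells (-0.03) stood near 0 as well. Oligodendrocyte precursors (8 markers, median 0.24) included Olig2, called with 0.43 ± 0.08. The Olig2 call held in 0 of 11 fits that left out 1 array. It was also lost with the 6 arrays alone (adjusted p = 0.106 in limma). The median over the precursor list was -0.16 to -0.05 on the CT6 arrays and 0.01 to 0.14 on the CT18 arrays. Oligodendrocytes (12 markers, 0.22) included Ugt8a, a myelin lipid enzyme, called with 0.51 ± 0.10 and in 2 of 11 fits that left out 1 array. Of the oligodendrocyte markers 8 of 12 lay above 0, and the myelin protein gene Opalin differed by -0.61 ± 0.17, with no overlap and not called. Of 10 markers of meninges and fibroblasts 0 lay above 0, with a median difference of -0.72. The medians over these markers on each array were 0.04, 0.66 and 0.44 at CT6 against 0.47, -0.45 and -1.10 at CT18. There CT18 mouse 14 overlapped with the CT6 mice. Of 8 striatal markers 0 lay above 0, with a median difference of -0.51, where CT6 mouse 6 was highest with a median over the markers of 0.71. Of 8 ependymal markers 8 lay above 0 (median 0.32) and of 7 blood markers 7 (median 0.43), with overlapping groups. Choroid plexus markers were high on 1 array of each group and had a median difference of 0.09. The part of these tissues in the genes called was not tested.

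**Figure D4:**
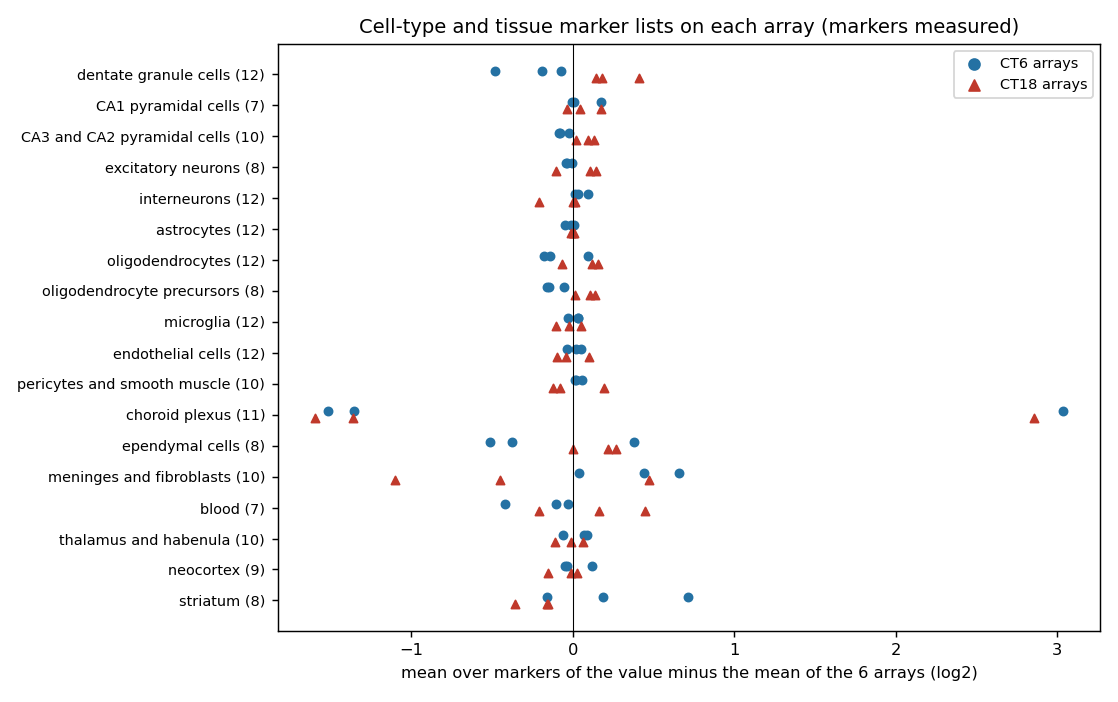
Level of 18 marker lists (y, markers measured in brackets) on each of the 6 arrays (x, median over markers of the value minus the mean of the 6 arrays, log2). The axis title says mean over markers, but the points are medians. Blue circles are CT6 mice and red triangles CT18 mice. Markers of dentate granule cells, of CA3 and CA2 pyramidal cells and of oligodendrocyte precursors do not overlap between the groups. Choroid plexus markers are near 3 on 1 array of each group and below -1 on the others.

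Set within the day, CT18 and CT6 were the highest and the lowest of the 4 times for 143 of the 207 higher genes (69.1%), against 17.6% of all genes with a difference above 0. For the lower genes this held for 100 of 124 (80.6%), against 20.1%. The choice of genes by this contrast favours such an order, and these shares carry no test. The CT12 means leave out CT12 mouse 11. Another 54 higher and 17 lower genes had their extreme at CT18 but not at CT6. P4ha1 stood at 0.68 at CT0 and 0.21 at CT12, and Adam8 at 0.33 and -0.35, so that for both CT12 was near CT6. Hspa5 stood at 4.46 at CT0 and 4.24 at CT12, and Cirbp at 3.26 and 4.03.

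A smaller set of 24 genes, 18 higher and 6 lower, was called under each of 4 fits: 11 arrays, 12 arrays, 6 arrays, and 11 arrays with the slide as a block. It held the ER genes Sdf2l1, Hspa5, Manf, Creld2, Pdia3 and Pdia6, the chaperones Chordc1 and Cryab, the clock genes Per2 and Nr1d1, and P4ha1, H2bc6, Noxred1, Pla2g4e, Nxnl2 and Lrrc29. Nxnl2 was well above background at CT6 only, so its call rests on dim CT18 values, and with the deposited table it was lost (adjusted p = 0.172 in limma). Others in it were chosen for mention after their values were seen. They include Zbtb40, a zinc finger gene (0.90, 1.06 and 0.94 against 2.02, 1.97 and 2.04; adjusted p = 0.00139), Mkks, a chaperonin-like protein needed for cilia (1.59, 1.76 and 1.70 against 2.60, 2.70 and 2.88; adjusted p = 0.00279), and Saysd1 (-2.12, -1.97 and -2.35 against -1.23, -1.08 and -0.99; adjusted p = 0.00692). In each of these 3 genes the CT18 mice lay above the CT6 mice without overlap. Of the 331 calls, 20 held in each of the 11 fits that left out 1 array.

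**Figure D5:**
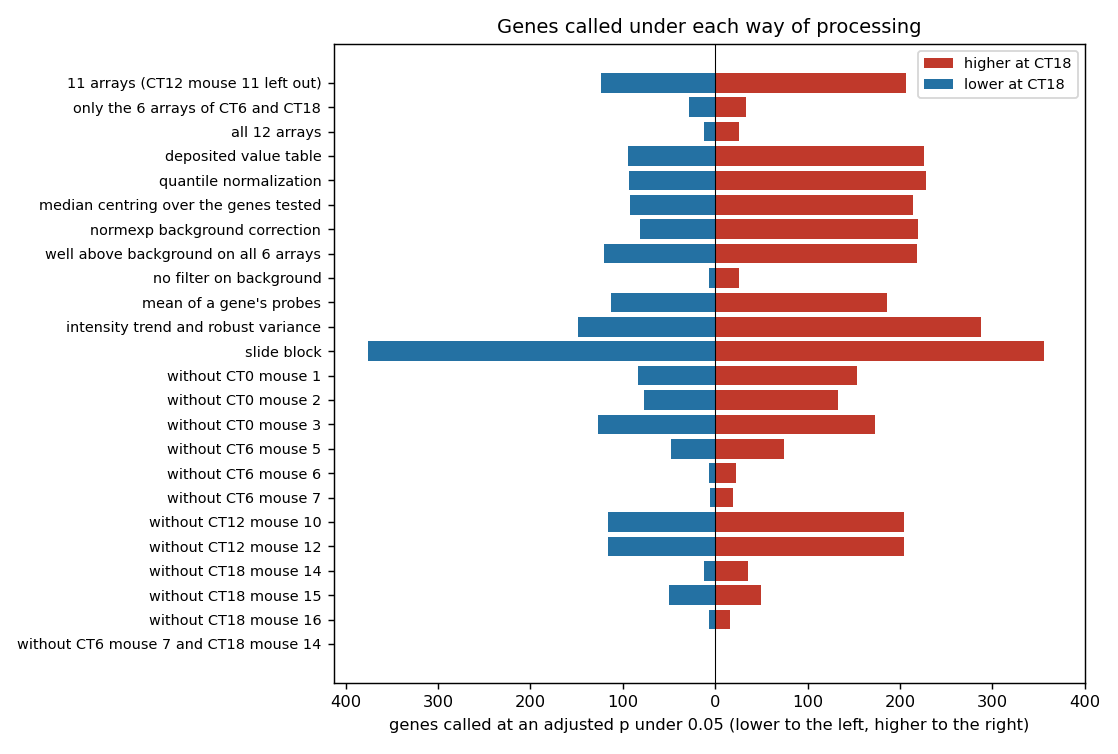
Number of genes called at an adjusted p under 0.05 under each way of processing (y), with lower genes to the left and higher genes to the right of 0 (x, both counted upward from 0). The fit reported, at the top, called 207 higher and 124 lower; the slide block called 356 and 376, and the fit without CT6 mouse 7 and CT18 mouse 14, at the bottom, called 0.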

How the data were processed

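RNA was measured on 1-colour Agilent arrays, 1 mouse each. Per the file headers, Feature Extraction 10.7.3.1 made the processed signal, an intensity after background subtraction and detrending; probe positions are on mm9. The spot flags (other, 0 or 1) and local background intensity are the authors' deposited columns. The authors' deposited table of log2 values (column medians 5.369 to 5.370, way of making not stated in the sources used here) was an alternative. Each column of it matched its own array best.

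Here the processed signal was divided by the 75th percentile of its array and taken to log2. Of 55681 probes, 33506 were well above background on all 3 arrays of CT18 or of CT6; the brightest probe stood for a gene. Names came from RefSeq (GRCm38.p6): an accession named 26582 probes, a symbol 2602 and a synonym 492, while 26005 have only their array name. Limma 3.58.1 in R 4.3.3 fitted 1 mean per time on 11 arrays; the procedure was tested on simulated data. The number of mice limits the precision. Each time had 1 array on each of 3 slides, always at the same position, so position and time cannot be told apart. For a gene below background throughout 1 group the fold is a bound: each dim array counts at the level of its faintest probe well above background, unless the gene's own value exceeds it.

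The genes named are the 16 higher and 14 lower with the largest differences, the called members of 42 process lists (up to 6, otherwise the 2 with the smallest p) and the 2 with the smallest p of 18 cell lists; others are given as examples chosen after their values were seen. A few of these genes are left out here. The arrays compared, the lists and the motifs were chosen with earlier results of these data known. Alternatives were other arrays in the fit, values, scalings, filters, probe summaries, variance models, the slide as a block and leaving out each array.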

Additional observations from a re-analysis of the deposited data

How the results depend on the processing

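The count of called genes (331; 207 higher and 124 lower) moved with the arrays in the fit, the slide block and the filter. It was 61 (33 and 28) with 6 arrays, 38 (26 and 12) with all 12, and 732 (356 and 376) with the slide as a block, of which 203 higher and 121 lower genes were called without the block. Without a filter on background it was 33 (26 and 7). Normexp background correction gave 300, of which 73% were higher and 81 were lower. Leaving out 1 array in turn gave 23 to 320 (16 to 204 higher, 6 to 127 lower). Without both arrays with choroid plexus transcripts, chosen after seeing the data, it was 0 in every direction (2069 at an unadjusted p under 0.05). Scaling by quantiles (321) or medians (306), the deposited table (320), the mean of a gene's probes (299) and a variance trend (437) stayed within 1.5 times.

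Choroid plexus genes changed sign: Calml4 (0.43) was -0.01 without CT6 mouse 5, -0.29 without CT6 mouse 6 and -0.41 without CT18 mouse 14 (range -0.41 to 1.6), and Clic6 (-0.71) was 1.10 without CT6 mouse 7, 0.16 without CT18 mouse 15 and 0.53 without CT18 mouse 16 (range -2.81 to 1.10). No paired analysis was possible because no mouse number is shared between the groups; the slide served as the block. Signal over background limits the dim genes: 5 of the higher and 9 of the lower genes were not well above background at their lower time.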
